A study of Saccharomyces cerevisiae
Saccharomyces paradoxus with 24 samples.

Results

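The interval from 5 to 10 min of rapamycin was the step of a Rap1 depletion time course in which the windows that emptied early lost the most Rap1. It was described by comparing the 2 ChIP-seq libraries taken at 10 min with the 2 taken at 5 min, paired by strain isolate, at all 1118 Rap1 windows of the deposited table, which makes 4 of the 24 libraries of the series. Both times came from the same SIR strain, kept as isolates JRy15237 (replicate 1) and JRy15238 (replicate 2), with 7.5 µM rapamycin present. The strain carried Rap1(134)-FRB_2xV5, RPL13A-2xFKBP12::TRP1, fpr1::NAT, TOR1(S1972I), bar1delta::k.l.URA3, hmlalphadelta::UniqueHMLwithSNPs and hmrdelta::HygMX with the markers ura3, lys2, trp1-1, can1-100, leu2-3,112 and his3-11,15, and the 0 min cells of the course carried the same alleles and received DMSO. The sources used here name the isolates but do not say whether the 2 libraries of a time came from separate cultures on separate days. The p-values thus measure the spread between libraries of the 2 isolates, estimated over all 16 ChIP libraries of the course.

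Rap1 is an essential DNA-binding protein of budding yeast. It activates most ribosomal protein genes and many genes of translation and glycolysis, binds the repeats at chromosome ends, and sits at the silencers and the promoter of the silent mating-type locus HML. In anchor-away, rapamycin joins an FRB tag on the protein of interest to an FKBP12 tag on a ribosomal protein, and the export of new ribosomal subunits carries the tagged protein out of the nucleus. A bound molecule must first leave its site, so the ChIP signal of a site falls as its molecules dissociate and are not replaced. The fpr1 deletion removes the cell's own rapamycin-binding protein and the TOR1 allele makes growth tolerant of the drug.

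The value of a window is the authors' count of reads within 150 bp on either side of a peak summit, per 1000000 reads of Saccharomyces paradoxus in the same library. These reads come from S. paradoxus cells with Rap1-2xV5 (strain JRy15212) that were mixed in and had not been exposed to rapamycin. This value is called the Rap1 signal. The 10 min libraries held 8995076 (replicate 1) and 5787202 (replicate 2) S. paradoxus reads, and the 5 min libraries 6542211 and 4792037. The median window held 384 and 334 reads at 10 min and 590.5 and 573.5 reads at 5 min, so counting error was small at most windows. Replicate 2 had the higher signal at both times, as it had at 0 min, which is why changes were taken within an isolate. Windows were peaks that the paper called on the 0 min cells with an untagged control as the background. Each was named from the R64 annotation by a tRNA gene in it, or by an open reading frame (ORF). The ORF had to start within 300 or 500 bp of the summit. Where there was neither, the window was named as near or inside the closest gene. The type upstream of an ORF needs a start within 300 bp.

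The promoter of HML shows what such a window covers. The following stretch of the unique HML of these strains, read from the gene block used to build it, is printed because a 9-base match to the core letters of a Rap1 site, ACCCNNACA, lies in it on the opposite strand. The match is in capitals. The letters were chosen after the sequence had been seen, and a match is no proof of binding.
HML-p: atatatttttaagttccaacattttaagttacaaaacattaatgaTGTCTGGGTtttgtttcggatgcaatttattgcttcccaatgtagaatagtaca

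Rap1 signal fell at most windows between 5 and 10 min. The median window had a signal of 42.7 (replicate 1) and 57.7 (replicate 2) at 10 min, against 90.3 and 119.7 at 5 min. The ratio of the 10 min to the 5 min signal had a median of 51.5% in replicate 1 and 52.2% in replicate 2. The log2 change, taken on log2(signal + 1), had a median of -0.92 over both isolates, with -0.94 and -0.93 in the single isolates. The signal was lower at 10 min in both isolates at 1080 of 1118 windows and higher in both at 29.

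By limma's moderated test with Benjamini-Hochberg adjustment over all windows, 891 windows (79.7%) were lower and 5 (0.447%) were higher at 10 min, with an adjusted p under 0.05. The standard error of a change ran from 0.19 to 0.26. At 912 windows (81.6%) both 10 min values lay under both 5 min values, and at 14 (1.25%) both lay above. The isolates ordered the windows alike, with a Spearman rho of 0.903 and a Pearson r of 0.917 between their log2 changes across 1118 windows, which share libraries and are not independent replicates. The size of the shared fall rests on the spike-in. When each library was scaled to its total over all windows in place of S. paradoxus reads, the median change was -0.46, and 706 windows (63.1%) were lower and 71 (6.35%) higher.

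**Figure D1:**
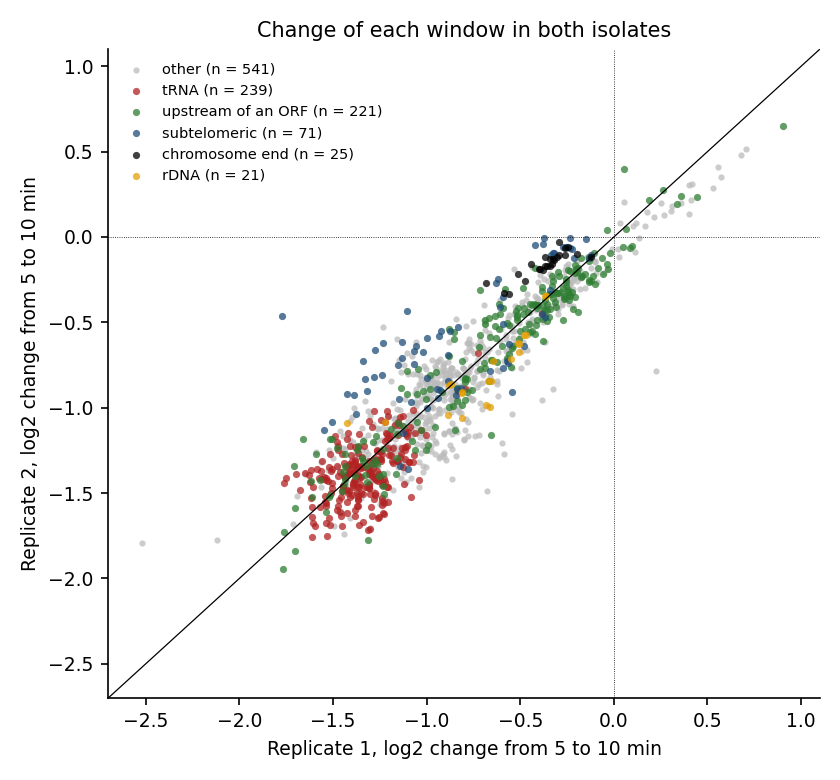
Log2 change of Rap1 signal from 5 to 10 min in replicate 1 (x axis) and replicate 2 (y axis), 1 point for each of 1118 windows, coloured by window type. Points follow the diagonal (Pearson r = 0.917), tRNA windows (red) gather at the lower left and the highest point, RPS30B, lies at 0.90 and 0.65.

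The interval was set among the 7 steps of the course. The steps after 20 min are longer than those before, so a larger fall in a step is not a faster one. The median log2 change of all windows was -0.11 from 0 to 5 min, -0.92 from 5 to 10 min, -0.82 from 10 to 15 min and -0.23 from 15 to 20 min. The later steps had medians of 0.10 (20 to 30 min), -0.10 (30 to 45 min) and -0.14 (45 to 60 min). The steps from 5 to 15 min thus held most of the fall of the median window. At 5 min the median window kept 97.3% (replicate 1) and 87.9% (replicate 2) of its 0 min signal, and at 10 min 50.6% and 46.5%. For 652 of 1118 windows (58.3%) the largest of the 7 falls was the one from 5 to 10 min, and for 376 (33.6%) it was the next one. The isolates differed in this, with 664 and 270 windows in replicate 1 alone and 492 and 560 in replicate 2 alone.

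Fast and slow windows were told apart by libraries outside the interval. The fast windows were the 280 of 1118 with the lowest, and the slow windows the 280 with the highest, mean log2 signal at 15 and 20 min relative to 0 min. The last fast window had -2.580 and the next one outside the class -2.579, and the last slow window had -1.336 against -1.337 outside it, so the classes are cuts through a continuum. A window that is low at 15 min must have fallen at some time before, so a larger fall of the fast class over the first steps follows from the choice, and the values of the classes are given with no test.

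In fast windows the median signal was 30.8 (replicate 1) and 39.4 (replicate 2) at 10 min, against 79.3 and 105.5 at 5 min. In slow windows it was 403.9 and 520.2 at 10 min, against 481.2 and 603.6 at 5 min. Fast windows were thus left with a median of 38.7% and 38.2% of their 5 min signal, and slow windows with 80.4% and 81.8%. The median log2 change was -1.35 in fast and -0.29 in slow windows (-0.89 and 0.18 with scaling to the window total), a difference of -1.06 (-1.02 in replicate 1 and -1.07 in replicate 2). When the class was taken from one isolate and the change from the other, the difference was -1.08 and -1.03. All 280 fast windows were called lower, and of the 280 slow windows 76 were lower and all 5 higher ones were in this class, beside the 79.7% and 0.447% of all windows.

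**Figure D2:**
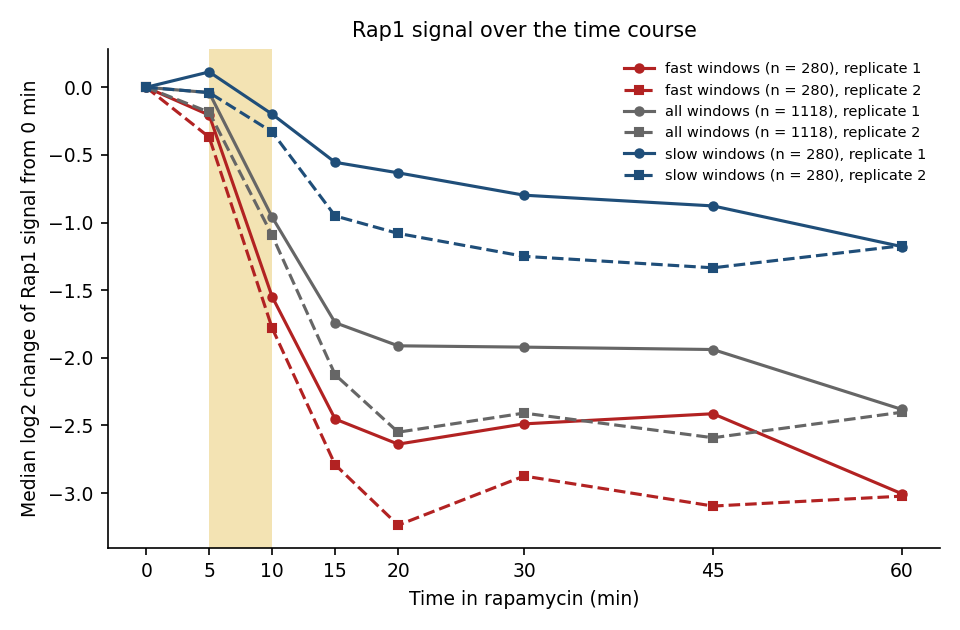
Median log2 change of Rap1 signal from 0 min (y axis) against time in rapamycin in min (x axis) for fast (red), all (grey) and slow windows (blue), with circles and solid lines for replicate 1 and squares and broken lines for replicate 2; the interval from 5 to 10 min is shaded. The fast windows drop through the shaded step in both isolates, with a median change of -1.35 within it, while the slow windows have -0.29 (0.18 with scaling to the window total).

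The step of the largest fall is tied to the choice of classes too, since fast windows must have fallen by 15 or 20 min and slow ones must not, and its counts are a description. For 229 of 280 fast windows (81.8%) the largest fall was from 5 to 10 min, and for the other 51 it was from 10 to 15 min. Among slow windows 69 had it from 5 to 10 min (24.6%), 127 from 10 to 15 min and 74 from 20 to 30 min. Per min the median change of slow windows in these steps was -0.059, -0.094 and -0.021. The fast windows had medians of -0.27, -1.35 and -1.01 in the steps ending at 5, 10 and 15 min, and the slow windows 0.04, -0.29 and -0.47. In replicate 2 alone 205 fast and 17 slow windows had their largest fall from 5 to 10 min, and in replicate 1 alone 230 fast and 64 slow windows. The step of the slow windows rests on the spike-in. With scaling to the window total their medians were 0.18 and 0.10 in the steps ending at 10 and 15 min, and their largest fall lay from 5 to 10 min in 26, from 10 to 15 min in 3 and from 20 to 30 min in 184, while 229 fast windows still had it from 5 to 10 min.

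**Figure D3:**
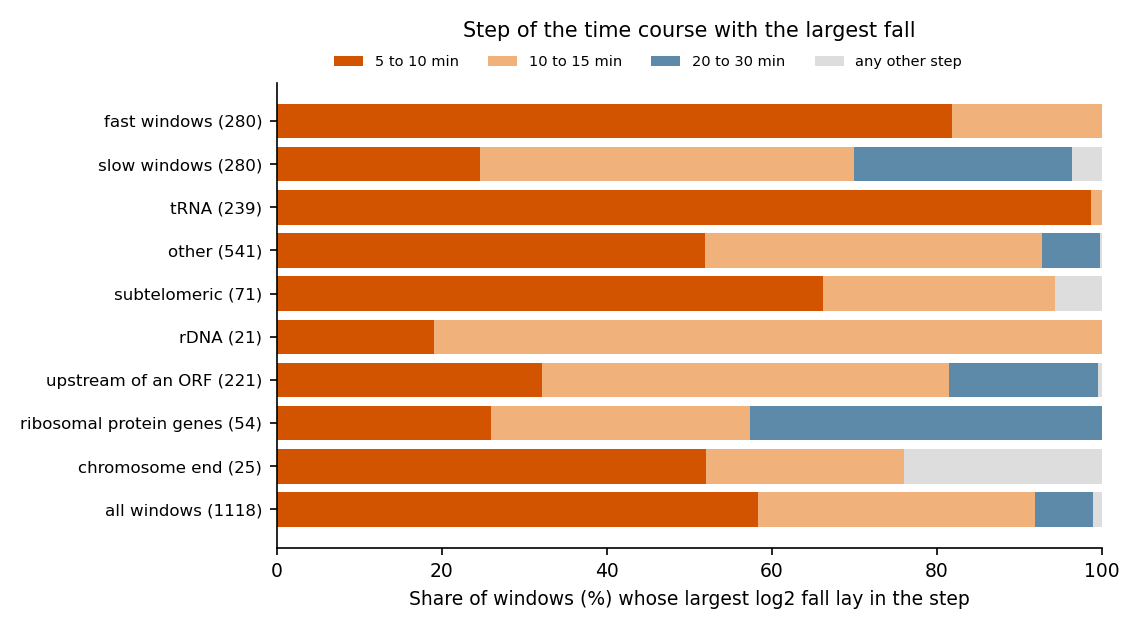
Share of windows in percent (x axis) whose largest log2 fall over the 7 steps lay from 5 to 10 min (dark orange), 10 to 15 min (light orange), 20 to 30 min (blue) or in any other step (grey), for the classes, window types and ribosomal protein genes, with the number of windows in brackets. The bar of 5 to 10 min takes 98.7% of tRNA windows, 81.8% of fast windows, 25.9% of ribosomal protein gene windows and 24.6% of slow windows (4 of 54 and 26 of 280 with scaling to the window total).

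The fast class held 122 tRNA windows, 98 of no listed type, 57 upstream of an ORF and 3 subtelomeric. The slow class held none over a tRNA gene, 114 of no listed type, 93 upstream of an ORF, 48 subtelomeric and all 25 at chromosome ends. The classes also differed in level. The median 0 min ChIP signal was 116 in fast and 534 in slow windows, and the ratio of ChIP to input at 0 min was 0.51 and 0.34 (replicates 1 and 2) in fast and 2.09 and 1.46 in slow windows, against 0.53 and 0.36 in all windows. Input is chromatin taken before immunoprecipitation, and at fast windows it was 190 and 404, at slow windows 209 and 440. Within a type the difference in change follows from the choice of classes as well, and its values are a description. Fast windows upstream of an ORF had a median of -1.33 (57 windows) and slow ones -0.29 (93 windows), and windows of no listed type had -1.25 (98 fast) and -0.28 (114 slow).

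Because nearly all windows fell, each library's median log2 signal was then subtracted, and the departure of a window from this median window was tested in the same way. On this scale 235 windows (21.0%) fell more and 405 (36.2%) fell less than the median window. The median departure of all windows was 0.13 and not 0. The median level thus fell further than the median change of -0.92, and this scale leans towards windows that fell less. Centring on the median change of all windows in place of the median level gave 349 that fell more (31.2%) and 335 that fell less (30.0%). Of the fast windows 164 fell more and 3 fell less, and of the slow windows none fell more and 259 fell less. Centred on the median change, 223 fast windows fell more and 1 fell less, and 251 slow windows fell less and none more. Counts against the median window below use the median level unless the other centring is named.

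The tRNA genes, short genes read by RNA polymerase III, lay in 239 windows. Their median signal was 29.1 and 37.2 at 10 min (replicates 1 and 2), against 75.7 and 99.1 at 5 min. All 239 were called lower, beside 79.7% of all windows, with a median log2 change of -1.38 (-1.34 and -1.39 in the isolates) and quartiles of -1.45 and -1.27. The 5 to 10 min step was the largest fall in 236 of them, and 158 fell more than the median window while 2 fell less. Centred on the median change, 210 fell more and 1 fell less. Their 0 min ChIP to input ratio of 0.45 and 0.30 was under that of all windows. The paper reported that peaks centred over tRNA genes or Ty elements had rather short apparent residence times and fitted its decay model well. It left them out of its further analysis of residence times. Its reasons were that no link of Rap1 to genes read by RNA polymerase III is known, and that ChIP signal at highly transcribed loci is often an artifact. The peaks had been called against an untagged control, but the signal of that control was not analysed at the windows here. How much of the tRNA window signal depends on the V5 tag was not tested.

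Single tRNA windows had the same form. The window over YNCD0026W on chromosome IV had 25.0 and 30.1 at 10 min, against 78.4 and 104 at 5 min, a log2 change of -1.68 ± 0.21 (SE; limma adjusted p = 1.7e-08), and it was the tRNA window with the largest fall. YNCE0027C on chromosome V (-1.65) and YNCD0017W on chromosome IV (-1.64), upstream of GCD6, were the other tRNA windows among the 10 largest falls. The tRNA windows with the most signal at 5 min moved less. SUP17 had 147 and 172 at 10 min, against 321 and 379 at 5 min (-1.13), and EMT5, which lies between YJL028W and VPS53, had 138 and 178 at 10 min, against 246 and 335 at 5 min (-0.87). The strongest, YNCG0034W on chromosome VII, had 393 and 485 at 10 min and 513 and 660 at 5 min. Its change of -0.41 (adjusted p = 0.047, 0.16 without the replicate block, and a change of 0.055 with scaling to the window total) was the smallest among tRNA windows, and its largest fall came from 10 to 15 min.

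**Figure D4:**
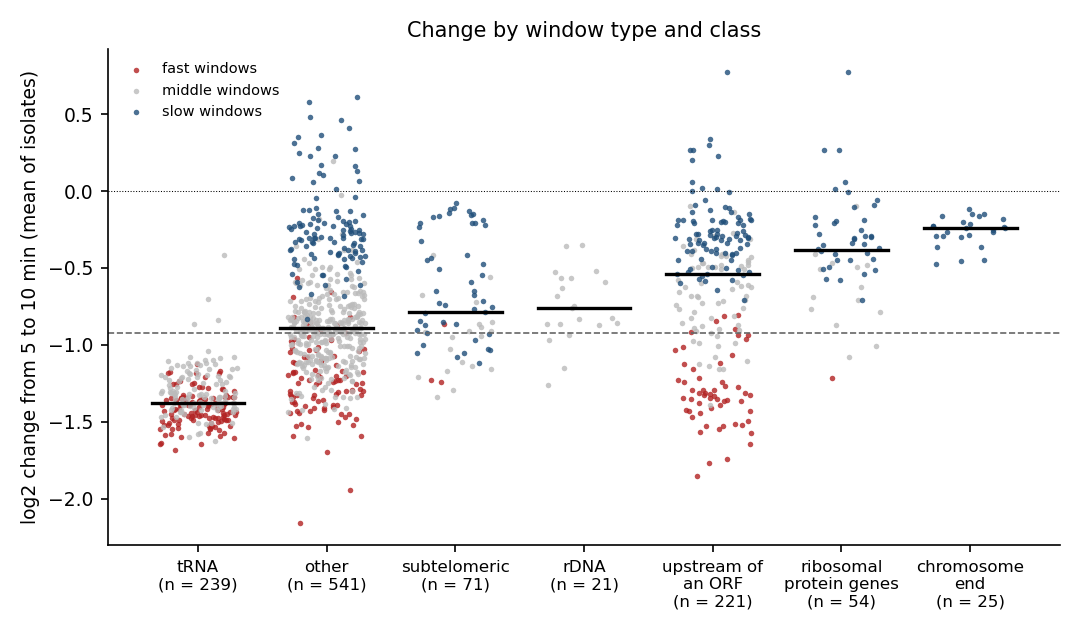
Log2 change of Rap1 signal from 5 to 10 min (y axis, mean of 2 isolates) by window type and for windows of ribosomal protein genes, which are also counted under their type. Each point is a window, red for fast, grey for middle and blue for slow; black bars are group medians and the broken line is the median of all windows, -0.92. tRNA windows lie in a narrow band around -1.38, chromosome ends around -0.24 and ribosomal protein genes around -0.38 (0.23 and 0.08 with scaling to the window total). Among windows upstream of an ORF the median is -1.33 for fast and -0.29 for slow ones, classes that are cuts through a continuum.

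Chromosome ends, where Rap1 binds arrays of telomeric repeats, moved least. The median signal of their 25 windows was 1452 and 2210 at 10 min (replicates 1 and 2), against 1862 and 2412 at 5 min. Both 10 min values lay under both 5 min values at 2 of the 25, beside 81.6% of all windows. That count is not paired by isolate, and the mean log2 change of the isolates ran from -0.48 to -0.12. The median log2 change was -0.24, or 0.23 with scaling to the window total, and 3 of 25 were called lower, beside 79.7% of all windows. The isolates differed here, with -0.34 in replicate 1 and -0.16 in replicate 2. All 25 fell less than the median window, beside 36.2% of all windows, and all 25 also did so centred on the median change, beside 30.0%. The strongest, at the left end of chromosome III, had 11522 and 17398 at 10 min, against 15214 and 19831 at 5 min, a change of -0.29 ± 0.21 (SE; adjusted p = 0.19). Reads from repeats of different ends cannot be told apart in these windows, and 10 windows were cut short by a chromosome start.

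The 71 subtelomeric windows, within 15 kb of an end, were mixed. Their median log2 change was -0.79, with 52 called lower (73.2%, beside 79.7% of all windows), and ran from -1.34 to -0.08. With scaling to the window total it was -0.32, with 36 lower and 10 higher. They too differed between isolates, with medians of -0.89 in replicate 1 and -0.66 in replicate 2, and in the next step the order was turned, with -0.19 and -0.76. The windows with the most signal, near YLL066C, IMD2 and YFL064C, had changes of -0.21, -0.21 and -0.16, none called. In the rDNA the 21 windows had a median change of -0.76 and 19 were lower, beside 79.7% of all windows (-0.29 and 10 with scaling to the window total). On the mean of the isolates the largest fall lay from 10 to 15 min in 17 of them, as it did in replicate 2 alone, but in replicate 1 alone it lay there in 2. Their input signal of 24121 and 51425 shows the many copies of this region, and 2 windows in copies of the 25S rRNA gene had nearly identical values, so that they are not separate measurements.

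The 3 Rap1 windows of HML are subtelomeric by this definition. HML-E, the silencer next to the telomere (chromosome III, 11089 to 11389), had 310 and 606 at 10 min, against 729 and 934 at 5 min. HML-p, the promoter of HMLALPHA1 and HMLALPHA2 (12995 to 13295), had 420 and 673 at 10 min, against 881 and 1068 at 5 min. HML-I, the other silencer (14505 to 14805), had 338 and 557 at 10 min, against 751 and 937 at 5 min. At all 3 both 10 min values lay under both 5 min values, as they did at 81.6% of all windows, and replicate 1 fell further than replicate 2. The changes were -0.93 ± 0.21, -0.87 ± 0.21 and -0.95 ± 0.21 (SE; adjusted p = 0.00011, 0.00022 and 8.7e-05), and on the mean of the isolates each had its largest fall in this step. In replicate 2 alone the next step took more, with -0.85, -0.99 and -0.97. None of them departed from the median window (adjusted p = 0.40, 0.18 and 0.46). In replicate 1 HML-p kept 47.7% of its 5 min signal and in replicate 2 63.0%.

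MAT-p is the active copy of the same promoter, at MATALPHA1 and MATALPHA2 (chromosome III, 200151 to 200451). It had 297 and 425 at 10 min, against 454 and 581 at 5 min. The change was -0.53 ± 0.20 (SE; adjusted p = 0.012, and 0.069 without the replicate block), the call was lost without 10 min replicate 1 or either 5 min library and with scaling to the window total (-0.060, adjusted p = 0.69), and it fell less than the median window (departure 0.52, adjusted p = 0.00025). Its largest fall came from 10 to 15 min. The difference between HML-p and MAT-p in this interval was -0.46 in replicate 1 and -0.22 in replicate 2, and it was not tested. SST2, a regulator of the response to mating pheromone, had 187 and 188 at 10 min, against 214 and 255 at 5 min, a change of -0.31 that was not called (adjusted p = 0.14). Of the 3 mating gene windows within 300 bp of a start 2 were lower, and of 5 within 500 bp 4, which is near the 79.7% of all windows.

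**Figure D5:**
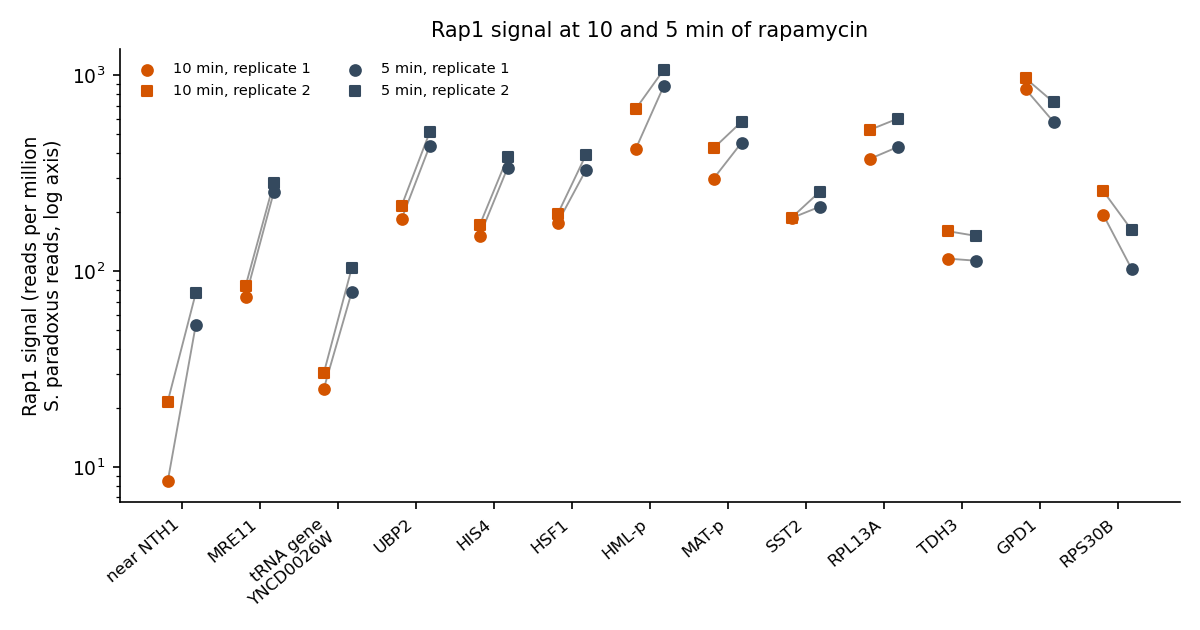
Rap1 signal in reads per 1000000 S. paradoxus reads (log axis) at 10 min (orange, left) and 5 min (dark blue, right) for 13 named windows, with circles for replicate 1 and squares for replicate 2 joined within each isolate. The drop is steepest at the window near NTH1 (8.45 and 21.6 at 10 min, 53.2 and 77.4 at 5 min) and turns into a rise at GPD1 and RPS30B.

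Windows upstream of an ORF outside these regions numbered 221. They had a median log2 change of -0.54 (-0.07 with scaling to the window total), with 137 called lower and 1 higher, beside 79.7% and 0.447% of all windows. Of these, 29 fell more and 141 fell less than the median window, beside 21.0% and 36.2% of all windows. Centred on the median change, 44 fell more and 127 fell less, beside 31.2% and 30.0%. The largest fall lay from 5 to 10 min in 71, from 10 to 15 min in 109 and from 20 to 30 min in 40. With scaling to the window total these 3 counts were 52, 42 and 112. Windows with a summit inside an ORF and no other type (319) had a median of -0.92 with 301 called lower, and those outside ORFs (222) a median of -0.61 with 140 lower.

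Ribosomal protein genes, the largest set of genes that Rap1 activates, had 54 windows within 300 bp of a start. Their median signal was 392 and 537 at 10 min (replicates 1 and 2), against 495 and 642 at 5 min. The median log2 change was -0.38 (-0.39 and -0.36 in the isolates, and 0.08 with scaling to the window total). Of the 54 windows 23 were lower and 1 higher, beside 79.7% and 0.447% of all windows. None fell more than the median window and 50 of 54 fell less, beside 21.0% and 36.2% of all windows. Centred on the median change, 1 fell more and 45 fell less, beside 31.2% and 30.0%. At 39 of the 54 the window was slow and at 1 it was fast. Their largest fall lay from 20 to 30 min in 23, from 10 to 15 min in 17 and from 5 to 10 min in 14. The median changes of these steps were -0.50, -0.58 and -0.38, and per min -0.050, -0.12 and -0.077. The counts of largest falls were 23, 10 and 18 in replicate 1 alone and 19, 30 and 4 in replicate 2 alone. With scaling to the window total they were 47, 0 and 4. Within 500 bp of a start ribosomal protein genes had 115 windows, with a median change of -0.31 (0.16 with scaling to the window total). Of these 36 were lower and 1 higher, and 96 were slow. The 167 windows upstream of an ORF of other genes had a median change of -0.68, with 114 lower.

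Single ribosomal protein genes spanned most of the range. RPL18B had 37.5 and 61.5 at 10 min, against 91.9 and 139 at 5 min, and its change of -1.22 was the largest of the list. RPS22B (-1.08), RPS8B (-1.01) and RPL24B (-0.87) were next, and each of these 4 had a 5 min signal of 139 or less in both isolates. Windows of like signal moved less, with -0.77 at RPS29A, -0.69 at RPS29B and -0.30 at RPL15A, the last not called. Of the windows with the most signal, RPS11B had 1317 and 1619 at 10 min, against 1648 and 2072 at 5 min (-0.34). RPL40B (-0.21) and RPL35A (-0.34) were also not called, whereas each of these 3 fell less than the median window. RPL2B, whose window lies over 300 bp from the start, had 2241 and 2973 at 10 min, against 3801 and 4600 at 5 min (-0.70 ± 0.20, SE; adjusted p = 0.0014, and 0.052 without 10 min replicate 1).

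RPL13A encodes the ribosomal protein that carries the anchor. Its window had 375 and 527 at 10 min, against 431 and 601 at 5 min, a change of -0.20 (adjusted p = 0.35). RPS4A, which shares its window with the start of YJR146W, had 1146 and 1365 at 10 min, against 1386 and 1800 at 5 min (-0.34, adjusted p = 0.11). RPS12 (0.06), RPL21B (0.27) and RPS20 (0.27) had changes above 0 in both isolates, and none of them was called.

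RPS30B was the window with the largest rise of all. It had 193 and 256 at 10 min, against 103 and 163 at 5 min, and both 10 min values lay above both 5 min values. The change was 0.78 ± 0.20 (SE; adjusted p = 0.00043). It stands within 500 bp of SER1, a gene of serine synthesis, as well, and its summit lies inside FYV12. The other called rises were near TYE7 on chromosome XV (540 and 594 at 10 min, against 330 and 416 at 5 min, 0.61), near PAL2 on chromosome VIII (467 and 535 at 10 min, against 291 and 383 at 5 min, 0.58), at GPD1 on chromosome IV (851 and 968 at 10 min, against 579 and 729 at 5 min, 0.48) and inside YEL008W on chromosome V (725 and 772 at 10 min, against 487 and 606 at 5 min, 0.46). GPD1 encodes a glycerol-3-phosphate dehydrogenase used in the response to osmotic stress.

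The number of rises depended on the processing. Without the replicate block 3 windows were called higher, and when any 1 of the 4 libraries was left out 2 or 3. GPD1 and YEL008W were lost in each of these cases and RPS30B in none of them. With scaling to the window total all 5 were called higher, with adjusted p of 1.6e-05 or less. At 15 min RPS30B held 138% (replicate 1) and 95.9% (replicate 2) of its 0 min signal, and GPD1 131% and 92.5%. IXR1 had 336 and 371 at 10 min, against 254 and 337 at 5 min (0.27, adjusted p = 0.20). MAM3, IRC15, YBL029C-A and the windows near YNCD0003W and YNCG0040C, the other windows of smallest fall, had changes from 0.32 to 0.41 that were not called, although both 10 min values lay above both 5 min values at each of them.

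At the other extreme, the window near NTH1 on chromosome IV fell furthest, by 2.16 ± 0.22 on the log2 scale (SE; adjusted p = 3.1e-10). It had 8.45 and 21.6 at 10 min, against 53.2 and 77.4 at 5 min. The window near YPT7 on chromosome XIII had 12.6 and 26.3 at 10 min, against 57.9 and 92.2 at 5 min (-1.95). Both were weak windows, little above the minimum of 50 at 5 min set for naming. Their isolates differed, with -2.52 and -1.79 near NTH1.

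Promoters among the largest falls had more signal. YDR109C, whose window is also within 500 bp of FOB1, a gene of replication fork blocking in the rDNA, had 34.7 and 34.9 at 10 min, against 120 and 137 at 5 min (-1.85). MRE11, which encodes a nuclease of DNA break repair, had 74.2 and 84.5 at 10 min, against 253 and 282 at 5 min (-1.74 ± 0.20, SE; adjusted p = 5.7e-09). The window between MOG1 and OPI3, a gene of phosphatidylcholine synthesis, had 25.3 and 24.4 at 10 min, against 84.8 and 89.7 at 5 min (-1.77). The window near PGA2 (-1.70) and the one upstream of NMD5 (-1.64), an importin gene, completed the 10 largest, together with 3 tRNA windows. All 10 were fast, had their largest fall in this step and fell more than the median window.

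A number of fast promoters fell later than the class. HIS4, a gene of histidine synthesis, had 151 and 172 at 10 min, against 339 and 383 at 5 min (-1.16 ± 0.21, SE; adjusted p = 3.0e-06), but the following step took more, with -1.71 and -1.66 in the isolates. UBP2, a ubiquitin protease gene, had 185 and 216 at 10 min, against 437 and 514 at 5 min (-1.24), and -1.92 and -2.05 in the next step. HSF1, the gene of the heat shock factor, had 177 and 196 at 10 min, against 327 and 391 at 5 min (-0.94), and UTP4, a gene of the small-subunit processome that shares its window with YCG1, had 378 and 457 at 10 min, against 714 and 860 at 5 min (-0.91). In the next step HSF1 had -1.13 and -1.38 and UTP4 -1.24 and -1.46. None of these 4 promoters departed from the median window between 5 and 10 min (adjusted p = 0.49, 0.22, 0.42 and 0.29). They ended at 3.91% and 5.65% (HIS4), 2.79% and 4.18% (UBP2), 7.08% and 7.43% (HSF1) and 6.68% and 7.57% (UTP4) of the 0 min signal at 60 min, against a median of 18.1% and 18.2% in all windows.

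The smaller gene lists had few windows, and their counts stand beside 79.7% of all windows called lower. Of 9 windows of genes for ribosome assembly and for subunits of RNA polymerases I and III 5 were lower, with a median of -0.55 (3 and -0.08 with scaling to the window total). BUD22, a biogenesis factor, had 1356 and 1507 at 10 min, against 1925 and 2285 at 5 min (-0.55, adjusted p = 0.0088, and 0.057 without the replicate block), and REH1, a factor of late 60S maturation, had 398 and 518 at 10 min, against 500 and 632 at 5 min (-0.31, not called). Among translation factors only YEF3, the gene of elongation factor 3, had its window within 300 bp, with 47.9 and 80.3 at 10 min, against 147 and 195 at 5 min (-1.43). TEF1 and TEF2, which encode the same elongation factor, lay within 500 bp and had -0.17 and -0.40, neither called. Of the 6 translation factor windows within 500 bp 3 were lower, with a median of -0.45: YEF3, the window of EFB1 and SSA1 (-1.12) and the one RRP14 shares with TEF4 (-0.49), while HYP2 (-0.21) was not called.

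All 3 windows of chaperone genes within 300 bp were lower, beside 79.7% of all windows, HSP78 with -1.36, HSF1 with -0.94 and SSB1 with -0.50 (adjusted p = 0.022, and 0.085 without the replicate block). Of 3 windows of amino acid genes 2 were lower, HIS4 and a tRNA window beside HIS2 (-1.33), and HOM6 was not called (-0.38). No glycolytic gene had a window within 300 bp. Within 500 bp GPM1, which encodes phosphoglycerate mutase, was lower (-1.02). PGI1 (-0.25), ENO1 (-0.24) and TDH3 (0.06) were not called, and TDH3 had 116 and 160 at 10 min, against 113 and 152 at 5 min. Other strong windows behaved like the slow class. PRE2, which shares its window with RPL11A, had -0.20, RPL1B had -0.33, and a window beside the deleted HMR, where gene names of the standard genome do not apply, had -0.21, none of them called.

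Windows with more Rap1 at 0 min fell less in the interval. In the 280 windows with the highest 0 min signal the median change was -0.35, with 113 of 280 lower. In the 280 with the lowest it was -1.05, with 272 of 280 lower, beside 79.7% of all windows. With scaling to the window total the highest had a median of 0.12, with 39 lower and 54 higher. The lowest then had -0.59, with 224 lower and 2 higher, beside 63.1% and 6.35% of all windows. Across 1118 windows the change had a Spearman rho of 0.487 with the 0 min signal, and 0.248 within tRNA windows (n = 239), 0.502 within windows upstream of an ORF (n = 221) and 0.408 within windows of no listed type (n = 541). Windows share libraries and reads, and these are descriptions. The part of background in weak windows was not tested.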

How the data were processed

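Rap1 ChIP-seq of the time course was used in 16 libraries, of which 4 enter the contrast, with 2 input libraries. Per the labels and the paper, the authors' tools were CASAVA 2.2, Bowtie2 and SAMtools (no version for the last 2), and reads were aligned to S. paradoxus joined with a modified sacCer3 that has a unique HML and lacks HMR. Their signal, deposited for each summit with 150 bp to each side, is reads per 1000000 S. paradoxus reads. Their deposited S. paradoxus read counts are whole numbers for whole libraries. Positions are those of the modified sacCer3, and gene names come from R64. A single line that is no window and 14 columns that match no sample here were left out.

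Log2(signal + 1) was fitted with limma 3.58.1 in R 4.3.3, with time and isolate as terms and all 16 ChIP libraries sharing the spread, 2-sided, with Benjamini-Hochberg adjustment over 1118 windows. Figures and counts used Python 3.11.15. Same-numbered libraries come from the same isolate, per the labels. Their deviations from the time means had correlations from -0.208 to 0.408 (median 0.168) over 28 pairs of times and 0.291 between 5 and 10 min. A shift shared by all windows of a library enters the spread of each window. The standard error was 0.19 to 0.26 for a change and 0.10 to 0.20 for a departure from the median window. Such a shift moves all windows at once, and the adjustment over windows does not allow for that. On simulated data limma called 22 of 50 windows with a log2 change of -0.5 and all 50 at -1, -1.5 and -2, with 9 false calls among 918 windows. The simulated noise was independent between windows and libraries and had the same SD of 0.20 throughout. In the data windows move together, so these counts are no error rate of the reported calls.

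Named windows were the loci of the study and a few further Rap1 targets, the 10 largest falls and the 10 smallest falls or rises among windows whose 5 min signal reached 50, and the 3 strongest of each type and gene list. RPS22B, RPS8B, RPL18B, RPL24B, RPS12, RPL21B, RPS20, RPS29A, RPS29B, RPL15A, EFB1, TEF4, HYP2, PGI1, ENO1 and GPM1 were added after their values were seen. Members, lists and tests were chosen with earlier results of these data known. Alternatives were the pseudocount (0.1 and 5), other scalings and centrings, no block, fewer libraries, a trended prior, other classes and a 500 bp distance. A further one was a signal minimum of 50, set in the fits on the mean 0 min signal, which kept 1077 windows. The no-tag and sir4 libraries have no window values used here.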

Additional observations from a re-analysis of the deposited data

How the results depend on the processing

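The spread comes from 2 isolates, and the size of the shared fall rests on the S. paradoxus reads. Weak windows carry larger counting error, and an adjusted p over windows that move together overstates replication. The number of windows lower at 10 min was 888 and 908 with a pseudocount of 0.1 and 5, 853 with a signal minimum of 50, 820 without the replicate block, 1037 with only the 4 libraries, 933 with a trended prior, 706 with scaling to the window total, 659 of 879 without tRNA windows and 887 without the 30 min library of replicate 1, an alternative chosen after seeing the data, and 761 to 857 when 1 of the 4 libraries was left out, all within 1.5 times of 891. The number higher, 5, moved to 3 without the replicate block, 21 with only the 4 libraries, 9 with a trended prior, 71 with scaling to the window total and 2 to 3 when a library was left out. Without the block the pairing is ignored, and of the named windows MAT-p, GPD1, YEL008W, YNCG0034W, RDN25-1, BUD22 and SSB1 lost the call. Calls were lost without 10 min replicate 1 at these 7 and at TYE7 and RPL2B, without 10 min replicate 2 at GPD1, YEL008W, YNCG0034W and BUD22, without 5 min replicate 1 at MAT-p, GPD1, YEL008W, YNCG0034W and PAL2, and without 5 min replicate 2 at the 7.

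The median change was -0.94 and -0.87 with a pseudocount of 0.1 and 5, -0.46 with scaling to the window total, -0.83 without tRNA windows, and -1.05 to -0.83 when a library was left out, which breaks a pair. Fast minus slow windows was -0.86 with classes from 30 to 60 min, -0.73 with windows cut at the median into 2 classes, -0.96 with a pseudocount of 5, and -1.08 to -1.02 when a library was left out. The number of windows that fell more than the median window, 235, was 402 with the median taken without tRNA windows, where 307 fell less, and 115 to 188 when a library was left out: 115 without 5 min replicate 1, 121 without 5 min replicate 2 and 120 without 10 min replicate 2. Centring on the median change, chosen after seeing the data, gave 349 and 335. The number of windows with their largest fall from 5 to 10 min was 664 in replicate 1, 492 in replicate 2 and 620 with scaling to the window total.

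Scaling to the window total turned the sign at named windows with small changes, to 0.15 at SST2, 0.13 at RPS4A, 0.27 at RPL13A, 0.30 at TEF1, 0.071 at TEF2, 0.055 at YNCG0034W, 0.11 at TAR1, 0.12 near RDN25-2, 0.18, 0.17 and 0.19 at the ends of chromosomes III, VIII and XIV, 0.26 near YLL066C, 0.26 near IMD2, 0.31 near YFL064C, 0.27 at PRE2, 0.13 at RPS11B, 0.26 beside the deleted HMR, 0.14 at RPL1B, 0.26 at RPL40B, 0.13 at RPL35A, 0.16 at REH1 and 0.090 at HOM6. Of these windows YNCG0034W was called in the fit reported. The calls at MAT-p, RDN25-1, BUD22, RPL2B and SSB1 were lost with this scaling without a turn of sign. Leaving out 1 library gave ranges across 0 near YLL066C (-0.45 to 0.027), IMD2 (-0.43 to 0.024) and YFL064C (-0.37 to 0.051). Departures that were not called turned sign when 1 library was left out at HML-E (-0.13 to 0.38), HML-I (-0.041 to 0.24), HIS4 (-0.23 to 0.027) and SUP17 (-0.16 to 0.0061), with the median taken without tRNA windows at HML-E (-0.075), HML-p (-0.015), HML-I (-0.098), HSF1 (-0.087), UTP4 (-0.062) and EMT5 (-0.016), and centred on the median change at HML-E (-0.011), HML-I (-0.034) and HSF1 (-0.023). Over the named windows 679 of the values of change under an alternative kept direction and call, 44 gained the call, 38 lost it and 25 turned sign. Leaving out windows that overlap another, chosen after seeing the data, kept the median changes of tRNA windows, windows upstream of an ORF and ribosomal protein genes within the spread between isolates. The count model and the search for site letters in the windows were not run. The causes of these differences were not tested.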
